A study of Arabidopsis thaliana with 4 samples.

Results

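The 9 clade A protein phosphatases type 2C (PP2C) of Arabidopsis thaliana were followed in leaf RNA of 4 RNA sequencing libraries. They are ABI1 (AT4G26080), ABI2 (AT5G57050), HAB1 (AT1G72770), HAB2 (AT1G17550), HAI1 (AT5G59220), HAI2 (AT1G07430), HAI3 (AT2G29380), AHG1 (AT5G51760) and PP2CA (AT3G11410), taken by these locus names out of 31319 loci in the deposited tables, and every one of the 9 was found. The libraries are myc2 R3, WT R3, myc2 air and WT air, 1 per group, each made from leaves of 6 plants aged 4 weeks. All plants are of the Col-0 background, WT is the wild type, and myc2 carries the allele myc2-2 of MYC2, a transcription factor of jasmonate signalling. R3 leaves are labelled as collected 3 h after submergence and air leaves as collected before it, whereas the treatment protocol gives 24 h of submergence in darkness and harvests at 0 and 24 h of reoxygenation. The time behind R3 therefore rests on the sample labels, and the effects of darkness, submergence, reoxygenation and hour of harvest cannot be told apart. By its title, the study is about jasmonate, antioxidant synthesis and the return of plants to air after flooding.

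Clade A PP2Cs are the negative regulators at the core of abscisic acid (ABA) signalling. Without ABA they dephosphorylate SnRK2 protein kinases and keep them inactive. ABA bound by receptors of the PYR/PYL family makes the receptors block the phosphatases, the kinases are released, and they phosphorylate bZIP factors that bind ABA-responsive elements (ABRE) in promoters. Many clade A PP2C genes are themselves induced by ABA, which is known as a negative feedback of the pathway, and in leaves the phosphatases are best known for their part in stomatal closure and drought responses.

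Each group is a single library, so differences are given without tests or p-values and none of them was checked on replicates. Levels are RPKM, read numbers divided by gene length in kilobases and by mapped reads in units of 1000000, so they can be compared between genes of different length. The libraries held an estimated 22300000 fragments (myc2 R3), 27700000 (WT R3), 30500000 (myc2 air) and 29200000 (WT air). Intervals below are 95% exact binomial intervals from fragment numbers estimated with these depths, and they cover counting error only, not differences between plants or library preparations. MYC2 itself was at 34.9 and 91.7 RPKM in myc2 R3 and WT R3, and at 14.2 and 45.9 RPKM in myc2 air and WT air, lower in each library labelled myc2. Exons of a gene on the opposite strand overlap MYC2, so its value is uncertain.

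In the reference build TAIR10.1 the genes lie on all 5 nuclear chromosomes. The ABI and HAB genes are ABI1 at chr4:13219915-13222376 (minus strand), ABI2 at chr5:23087122-23089631 (plus strand), HAB1 at chr1:27389948-27393327 (plus strand) and HAB2 at chr1:6034270-6037398 (plus strand). The others are HAI1 at chr5:23894404-23896939 (minus strand), HAI2 at chr1:2280746-2282828 (minus strand), HAI3 at chr2:12608675-12610350 (plus strand), AHG1 at chr5:21026805-21029188 (plus strand) and PP2CA at chr3:3583782-3585850 (minus strand). Their first annotated transcripts have between 3 and 5 exons. By coding sequence the closest relatives are ABI1 and ABI2, identical at 77.9% of aligned bases, HAB1 and HAB2 at 77.1%, and HAI2 and HAI3 at 73.7%. HAI1 is identical to HAI3 at 64.6% and to HAI2 at 63.4%, while AHG1 reaches at most 55.1% with any other member. No stretch of 50 exon bases of any member occurs elsewhere in the reference genome, so fragments of that length would not be shared between members. ABI1 shares 22 exon bases with the gene AT4G26070 on the opposite strand, and the exons of the other 8 overlap no gene.

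The promoters of 4 members are shown: the pair with the most matches to the ABRE core, HAI1, which had no match and the largest ratio of R3 to air, and HAI3, which had the lowest mean level. Each is the 300 bases before the first annotated transcript start, written 5′ to 3′ along the gene's strand, from the RefSeq genome TAIR10.1, and capitals mark the ABRE core ACGTG on either strand. HAI2 (chr1:2282829-2283128, minus strand) had the most matches, PP2CA (chr3:3585851-3586150, minus strand) had matches that include a G-box, HAI1 (chr5:23896940-23897239, minus strand) had none, and HAI3 (chr2:12608375-12608674, plus strand) had 2 and a transcript level close to 0.
HAI2: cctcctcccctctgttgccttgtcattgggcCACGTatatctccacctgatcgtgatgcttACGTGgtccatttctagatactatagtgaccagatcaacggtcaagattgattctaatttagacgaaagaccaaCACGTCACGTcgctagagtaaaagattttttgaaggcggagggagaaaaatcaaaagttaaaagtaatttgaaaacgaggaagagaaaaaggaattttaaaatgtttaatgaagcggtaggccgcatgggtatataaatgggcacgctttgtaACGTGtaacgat
PP2CA: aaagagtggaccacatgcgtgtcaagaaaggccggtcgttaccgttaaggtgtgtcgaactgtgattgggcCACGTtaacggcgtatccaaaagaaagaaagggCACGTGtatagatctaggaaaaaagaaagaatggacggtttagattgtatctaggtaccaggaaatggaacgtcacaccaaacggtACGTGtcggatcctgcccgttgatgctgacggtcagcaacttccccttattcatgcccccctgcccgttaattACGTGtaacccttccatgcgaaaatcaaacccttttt
HAI1: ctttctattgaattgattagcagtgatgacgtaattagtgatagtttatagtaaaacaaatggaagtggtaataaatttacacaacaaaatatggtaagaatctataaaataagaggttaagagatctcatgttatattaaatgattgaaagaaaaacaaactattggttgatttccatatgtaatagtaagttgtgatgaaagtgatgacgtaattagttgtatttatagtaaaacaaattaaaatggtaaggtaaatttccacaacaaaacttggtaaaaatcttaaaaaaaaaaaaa
HAI3: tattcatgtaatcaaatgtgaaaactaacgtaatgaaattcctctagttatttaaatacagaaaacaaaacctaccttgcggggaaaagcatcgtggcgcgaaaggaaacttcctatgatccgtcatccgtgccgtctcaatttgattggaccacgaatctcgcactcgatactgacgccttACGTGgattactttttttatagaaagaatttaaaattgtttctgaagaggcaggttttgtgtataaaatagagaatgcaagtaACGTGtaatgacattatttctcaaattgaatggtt

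At least 1 ABRE core was found before 7 of the 9 members, against 25.8% of the 26711 promoters of protein-coding genes searched in the same way. HAI2 had 5 matches, PP2CA 4, HAB2 and HAI3 2 each, ABI1, HAB1 and AHG1 1 each, and ABI2 and HAI1 none. At least 4 matches were found before 0.311% of all promoters. The G-box CACGTG, which holds the ABRE core on both strands and is counted as 1 ABRE core, is also the motif that MYC2 is known to bind. It was found before AHG1 and PP2CA, and before 7.18% of all promoters. The dehydration-responsive element, searched as ACCGAC and GCCGAC on both strands, was found before AHG1 and before 8.28% of all promoters. HAI1 has a second annotated transcript start 237 bases further on, and the 300 bases before that start held 2 ABRE cores. These are matches of letters in a fixed window, not measured binding.

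**Figure D1:**
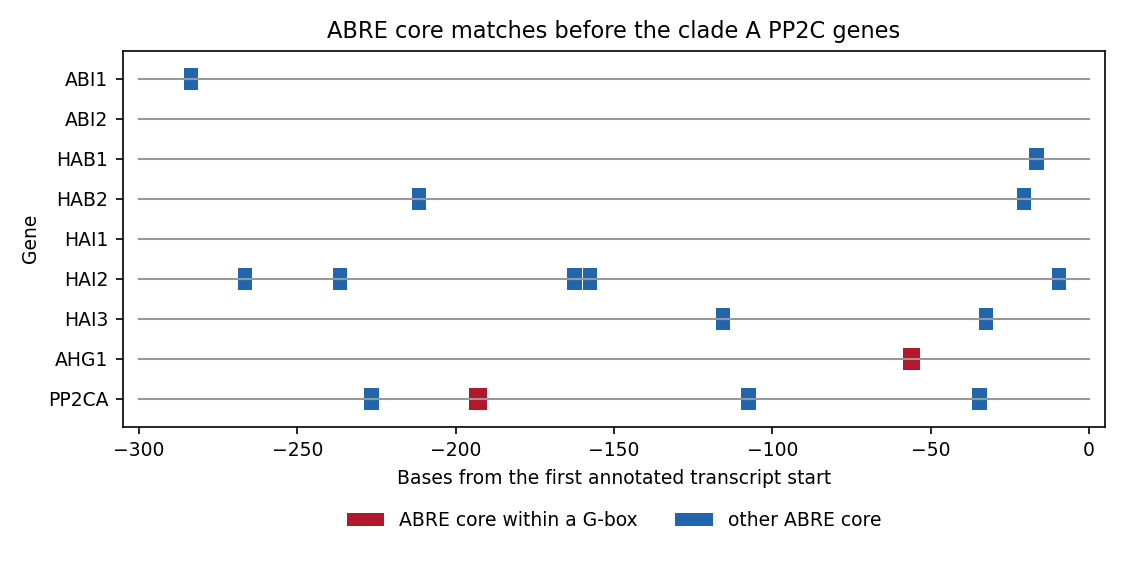
Positions of ABRE core matches (bars) in the 300 bases before the first annotated transcript start of each clade A PP2C gene, with the start at 0 on the horizontal axis in bases. Red bars lie within a G-box, which occurs before AHG1 and PP2CA, and the lines of ABI2 and HAI1 carry no bar.

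By deposited values, leaves sampled at R3 had several times more clade A PP2C transcript than leaves in air, in myc2 and in WT alike. The summed level of the 9 genes was 394 RPKM in myc2 R3 and 383 RPKM in WT R3, against 74.0 RPKM in myc2 air and 72.9 RPKM in WT air. With the deposited scaling, that is 5.32 times the air level in myc2 and 5.25 times in WT. These ratios between libraries depend on the scaling, and no rescaled sum is given here. ABI1, PP2CA and HAB1 were the most abundant members at R3, and PP2CA, ABI1 and HAB2 in air. In these bulk samples, fewer cells of a type and less RNA per cell cannot be told apart.

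**Figure D2:**
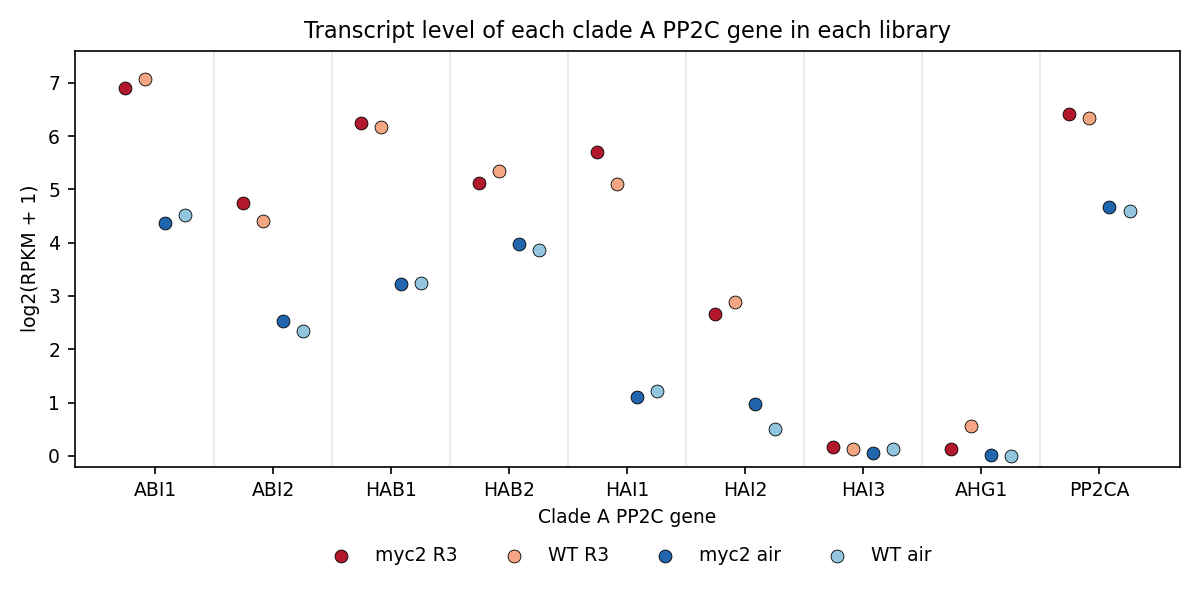
Level of each clade A PP2C gene in each library as log2(RPKM + 1), 1 point per library. The R3 points (red) lie well above the air points (blue) for the 7 genes other than HAI3 and AHG1, whose points stay below 1 in all 4 libraries.

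ABI1, named for the ABA-insensitive plants that its dominant mutation gives, was at 119 and 133 RPKM in myc2 R3 and WT R3, against 19.7 and 21.8 RPKM in myc2 air and WT air. It was the most abundant member in both R3 libraries, and its R3 to air ratio was 6.03 in myc2 (interval 5.68 to 6.42) and 6.07 in WT (5.73 to 6.43). Its close relative ABI2 was at 25.7 and 20.1 RPKM in myc2 R3 and WT R3, against 4.82 and 4.09 RPKM in myc2 air and WT air. ABI2 thus stood well below ABI1 everywhere, by a factor between 4.08 in myc2 air and 6.59 in WT R3. Its R3 to air ratios, 5.35 in myc2 and 4.92 in WT, were close to those of ABI1, with counting intervals of 4.73 to 6.04 in myc2 and 4.31 to 5.62 in WT.

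The HAB genes encode phosphatases named for their homology to ABI1 and ABI2, of which HAB1 is the better studied. HAB1 was at 75.0 and 70.9 RPKM in myc2 R3 and WT R3, against 8.31 and 8.52 RPKM in myc2 air and WT air. HAB2 was at 33.9 and 39.8 RPKM in myc2 R3 and WT R3, against 14.6 and 13.6 RPKM in myc2 air and WT air. The order of this pair turned over: HAB1 had 2.21 times the level of HAB2 in myc2 R3 and 1.78 times in WT R3, but 0.568 times in myc2 air and 0.628 times in WT air. These ratios are taken within a library and do not depend on how libraries are scaled. The R3 to air ratio of HAB1 was 9.02 in myc2 (interval 8.34 to 9.78) and 8.32 in WT (7.69 to 9.02). HAB2 had the smallest ratio of the 7 members above 1 RPKM on average, 2.32 in myc2 (2.16 to 2.49) and 2.94 in WT (2.73 to 3.15).

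PP2CA, also called AHG3, is a phosphatase of seed germination and of guard cell ion channels. It was at 84.2 and 79.5 RPKM in myc2 R3 and WT R3, against 24.5 and 23.1 RPKM in myc2 air and WT air. It was the most abundant member in both air libraries and the next after ABI1 in both R3 libraries. Its R3 to air ratio was 3.44 in each genotype (interval 3.23 to 3.67 in both). AHG1, its relative known mainly from seeds and unusual in resisting inhibition by the ABA receptors, was at 0.0986 and 0.476 RPKM in myc2 R3 and WT R3, against 0.0144 RPKM in myc2 air and a listed 0 in WT air. With the exon length of the reference, these levels correspond to an estimated 3.48 fragments in myc2 R3, 20.9 in WT R3 and 0.697 in myc2 air. No fold change is given against the listed 0, and the ratio of 6.83 in myc2 has an interval of 0.329 to 215, so no difference between R3 and air in myc2 was detectable at this depth.

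The HAI genes are named as highly ABA-induced PP2Cs, and HAI1 is also known as SAG113, a phosphatase of stomatal closure in senescing leaves. HAI1 was at 50.7 and 33.3 RPKM in myc2 R3 and WT R3, against 1.14 and 1.31 RPKM in myc2 air and WT air. Its R3 to air ratio, 44.5 in myc2 (interval 35.4 to 57.4) and 25.3 in WT (20.2 to 32.1), was the largest of the family in each genotype. Among all genes compared, its log2 ratio had rank 201 of 17737 in myc2 and rank 296 of 17271 in WT. HAI2, also called AIP1, was at 5.31 and 6.37 RPKM in myc2 R3 and WT R3, against 0.955 and 0.412 RPKM in myc2 air and WT air. Its ratio was 5.56 in myc2 (4.16 to 7.68) and 15.5 in WT (10.1 to 24.6), and the WT value rests on an estimated 22.9 fragments in WT air. HAI3, with 2 ABRE cores before it, stayed close to 0, at 0.122 and 0.0984 RPKM in myc2 R3 and WT R3 and at 0.0448 and 0.0934 RPKM in myc2 air and WT air. These are an estimated 4.08 fragments in each library but myc2 air, which had 2.04, too few to show a difference.

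**Figure D3:**
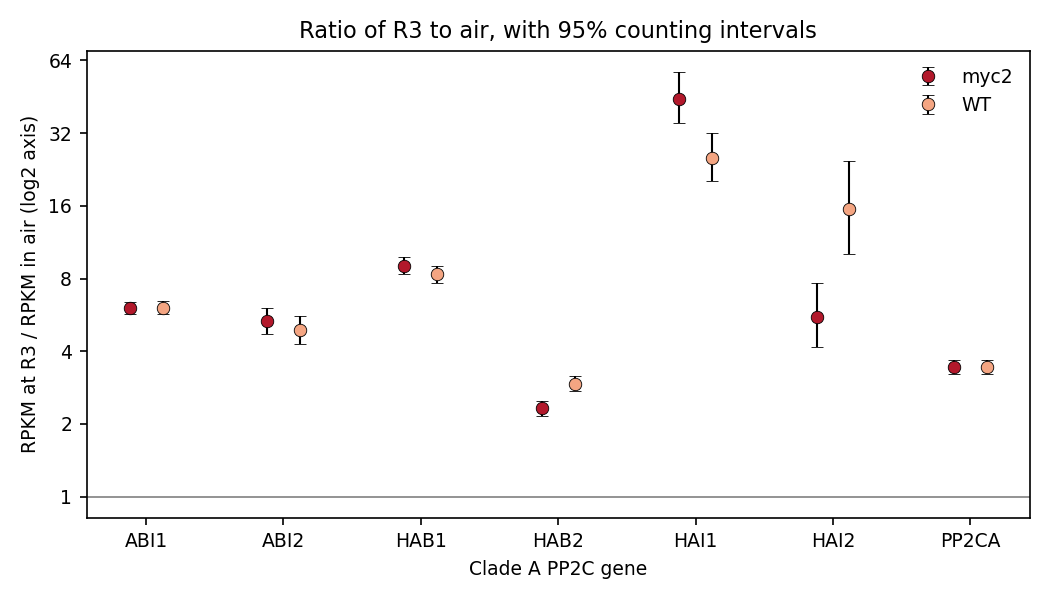
Ratio of RPKM at R3 to RPKM in air on a log2 axis, for the 7 members that averaged 1 RPKM or more over the 4 libraries, in myc2 and in WT, with bars for the 95% counting interval. All ratios lie above 2 and HAI1 is highest in both genotypes. With the deposited scaling, the intervals of the genotypes are apart for HAB2, HAI1 and HAI2.

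The family's composition differed between R3 and air. HAI1, HAI2 and HAI3 together made up 14.3% of the family's RPKM in myc2 R3 and 10.4% in WT R3, against 2.89% in myc2 air and 2.49% in WT air. PP2CA made up 21.4% in myc2 R3 and 20.8% in WT R3, against 33.0% in myc2 air and 31.7% in WT air. ABI1 and ABI2 together held 36.7% in myc2 R3 and 39.8% in WT R3, against 33.1% in myc2 air and 35.6% in WT air. The order of levels at R3 was ABI1, PP2CA, HAB1, then HAI1 before HAB2 in myc2 and HAB2 before HAI1 in WT, then ABI2 and HAI2. In air it was PP2CA, ABI1, HAB2, HAB1, ABI2, HAI1 and HAI2 in both genotypes. The neighbours PP2CA and ABI1 were close in WT air, where ABI1 had 0.946 times the level of PP2CA.

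To set these ratios against all genes, log2((RPKM + 1)/(RPKM + 1)) was taken for every gene that averaged 1 RPKM or more in the pair of libraries, and a gene was counted as higher or lower where this ratio was 2-fold or more. Of the 9 members 7 passed this filter in both R3 to air comparisons, while HAI3 and AHG1 did not. HAI2, below 1 RPKM in both air libraries, passed only through its level at R3, which fixed its direction. All 7 were at least 2-fold higher at R3, where 23.5% of the genes compared were in myc2 and 31.3% in WT, and 21.5% were in both genotypes. None was at least 2-fold lower, where 11.5% of genes were in myc2 and 10.1% in WT. The median log2 ratio of the 7 was 2.201 in myc2 and 2.38 in WT, against 0.30 in myc2 and 0.57 in WT for all genes. Relative to all genes, the members' median was thus 1.90 in myc2 and 1.82 in WT.

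The shift of all genes depends on how libraries are scaled, and the 50 highest genes held 17.3% and 13.3% of all RPKM in myc2 R3 and WT R3, against 33.0% and 39.1% in myc2 air and WT air. As deposited, 67.3% of the genes at least 2-fold apart in myc2 and 75.5% of those in WT were higher at R3. After rescaling to the median of ratios (each library divided by its typical ratio, over genes, to their geometric mean), these shares were 51.9% in myc2 and 50.3% in WT, and the medians of all genes were 0.03 in myc2 and 0.04 in WT. Of the 7 members, 6 were then at least 2-fold higher in each genotype, where 17.1% of all genes compared were in myc2 and 17.3% in WT, and HAB2 had a log2 ratio of 0.85 in myc2 and 0.91 in WT. No member's direction between R3 and air changed under any of the 7 alternative settings.

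**Figure D4:**
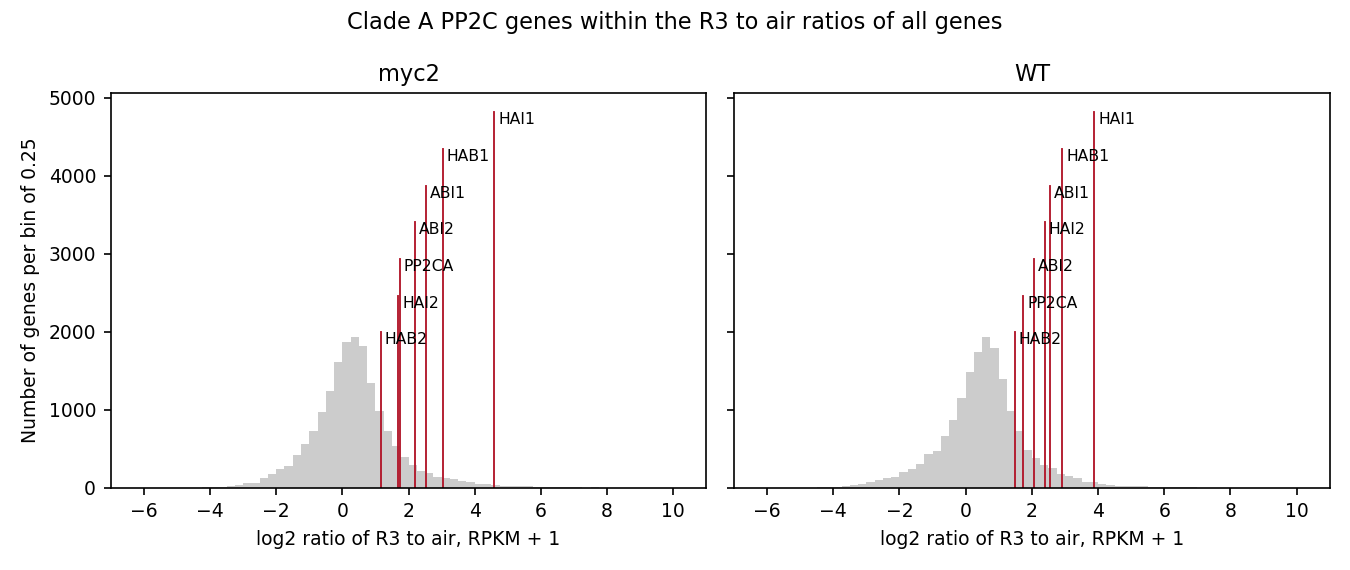
Number of genes per bin of 0.25 of the log2 ratio of R3 to air (RPKM + 1), in myc2 and in WT, with a red line at each of the 7 clade A PP2C genes that passed the filter. The lines lie to the right of the bulk of genes, from 1.16 for HAB2 to 4.59 for HAI1 in myc2 and from 1.49 to 3.89 in WT (the height of a line carries no value).

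Markers of other tissues and cells also moved between R3 and air. The 5 leaf mesophyll markers were each above 1 RPKM in all libraries and summed to 3645 and 3685 RPKM in myc2 R3 and WT R3, against 33594 and 44589 RPKM in myc2 air and WT air. Each of the 5 was lower at R3, RBCS1A, of the small Rubisco subunit, at 2345 and 2290 RPKM in myc2 R3 and WT R3, against 13700 and 18319 RPKM in myc2 air and WT air, and CA1, a carbonic anhydrase, at 48.1 and 57.6 RPKM in myc2 R3 and WT R3, against 1114 and 1811 RPKM in myc2 air and WT air. The 6 guard cell markers were all at 1 RPKM or more in every library and summed to 27.9 and 37.8 RPKM in myc2 R3 and WT R3, against 73.7 and 71.9 RPKM in myc2 air and WT air. Most of that sum in air was GC1, at 9.32 and 8.91 RPKM in myc2 R3 and WT R3, against 55.6 and 53.3 RPKM in myc2 air and WT air, while FAMA, a guard cell fate factor, was at 8.92 and 14.3 RPKM in myc2 R3 and WT R3, against 5.63 and 5.49 RPKM in myc2 air and WT air. The 5 root markers summed to 317 and 288 RPKM in myc2 R3 and WT R3, against 50.4 and 25.1 RPKM in myc2 air and WT air, of which EXT3, an extensin gene, gave 285 and 194 RPKM in myc2 R3 and WT R3, against 35.6 and 17.7 RPKM in myc2 air and WT air. PHT1;1, a phosphate transporter, was at 10.6 and 21.96 RPKM in myc2 R3 and WT R3, against 0.0456 RPKM in myc2 air and a listed 0 in WT air, SHR, a root patterning factor, was between 4.47 and 10.03 RPKM, and COBL9, of root hairs, was at 0.0142 RPKM or less in every library. PYK10 was at 11.4 and 62.8 RPKM in myc2 R3 and WT R3, against 6.54 and 2.91 RPKM in myc2 air and WT air. The 4 flower markers summed to 20.1 and 12.02 RPKM in myc2 R3 and WT R3, against 8.04 and 2.82 RPKM in myc2 air and WT air. They did not move together. PI, a floral organ factor, was higher at R3. It was at 17.01 and 11.3 RPKM in myc2 R3 and WT R3, against 2.08 and 0.609 RPKM in myc2 air and WT air. AP3, SEP3 and AG had lower values at R3 in both genotypes. The counting interval of the R3 to air ratio included 1 for AP3 in both genotypes and for AG in myc2. AG was at 0.422 RPKM or less in every library. SEP3, also a floral organ factor, was at 1.25 and 0.351 RPKM in myc2 R3 and WT R3, against 3.27 and 1.36 RPKM in myc2 air and WT air. The 5 seed markers summed to less than 1 RPKM in every library, and OLEO1, an oleosin of seed oil bodies, was listed at 0 in all 4. Genes on the opposite strand overlap GC1, EXT3, PYK10 and OLEO1, and some guard cell and seed markers not named here. The part of these changes in the levels of the phosphatases was not tested.

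Between the genotypes no member that passed the filter was 2-fold apart. In air, 6 members passed and 0 were 2-fold apart, where 2.81% of all genes were, and the members' log2 ratios of myc2 to WT lay between −0.15 for ABI1 and 0.19 for ABI2. HAI2 did not pass it in air, with an RPKM ratio of myc2 to WT of 2.32 (interval 1.39 to 3.91) from an estimated 55.4 and 22.9 fragments. Of all genes 2-fold apart in air, 87.8% were higher in myc2 as deposited and 62.9% after the rescaling to the median of ratios. At R3, 7 members passed and 0 were 2-fold apart, where 3.52% of all genes were. HAI1 stood furthest out at R3, with 50.7 RPKM in myc2 and 33.3 RPKM in WT, a ratio of 1.52 (1.44 to 1.62), and ABI2 followed with 1.28 (1.18 to 1.38). HAB2, at 0.852 (0.805 to 0.903), HAI2, at 0.833 (0.703 to 0.992), and ABI1, at 0.895 (0.865 to 0.926), were lower in myc2 R3 than in WT R3. In air, ABI1, HAB1 and HAI1 were lower in myc2 under every setting that gave a value. The counting interval of the ratio in air left out 1 for ABI1 but included 1 for HAB1 and HAI1. All settings use the same libraries, so their agreement does not bear on counting error. ABI2, HAB2 and PP2CA were higher in myc2 air as deposited and lower after the rescaling to the median of ratios. Their counting intervals in air also included 1. At R3, ABI2 and HAI1 were higher and ABI1, HAB2 and HAI2 lower in myc2 under every setting that gave a value. HAB1 and PP2CA, with a ratio of 1.06 each at R3, were higher as deposited and lower after rescaling to an equal sum. AHG1, at an estimated 3.48 fragments in myc2 R3 and 20.9 in WT R3, did not pass the filter and had a ratio of 0.207 (0.0339 to 0.594).

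The response to R3 in myc2 less that in WT, on the same log2 scale, was 0.71 for HAI1 and −0.69 for HAI2, and between −0.33 for HAB2 and 0.15 for ABI2 for the other members that passed. Of the 7, 0 reached 2-fold, where 6.7% of all genes did. Of those genes, 22.4% had the higher response in myc2 as deposited and 48.7% after the rescaling to the median of ratios. HAI2 was at −1.30 with a pseudocount of 0.1 and at −0.28 with one of 5. HAI1 lay between 0.57 and 0.88 under all settings, and HAB2 between −0.50 and −0.06. The responses to R3 of ABI1, at 2.53 in myc2 and 2.55 in WT, and of PP2CA, at 1.74 in each, differed by −0.01 for ABI1 and by less than 0.01 for PP2CA as deposited, and by −0.19 to 0.26 for ABI1 and −0.17 to 0.28 for PP2CA over the settings.

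Of the 14 PYR/PYL receptor genes 9 passed the filter, and with a pseudocount of 1 on the deposited values 0 were 2-fold apart between R3 and air in either genotype. The shares of all genes were 23.5% higher and 11.5% lower in myc2, and 31.3% higher and 10.1% lower in WT. In WT 1 was at least 2-fold higher with a pseudocount of 0.1 or after rescaling to an equal sum, and 1 was lower after rescaling without the 50 highest genes. After rescaling to the median of ratios 1 receptor gene was at least 2-fold lower at R3 in myc2 and 2 in WT. The shares of all genes that were lower were then 15.9% in myc2 and 17.1% in WT. PYR1, the founding receptor, was at 54.7 and 41.2 RPKM in myc2 R3 and WT R3, against 79.5 and 75.7 RPKM in myc2 air and WT air. PYL8, a receptor studied in root growth, was at 31.1 and 26.5 RPKM in myc2 R3 and WT R3, against 38.4 and 36.5 RPKM in myc2 air and WT air. PYL7 had the highest ratio in WT, 2.12 in RPKM, at 10.90 and 14.04 RPKM in myc2 R3 and WT R3, against 6.39 and 6.61 RPKM in myc2 air and WT air, and a gene on the opposite strand overlaps it. The receptor list had a median log2 ratio of −0.12 in myc2 and 0.16 in WT, or −0.42 and −0.41 relative to all genes.

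Within a library, a comparison that no scaling of libraries alters, the phosphatase sum exceeded the receptor sum at R3 and was below it in air. The summed clade A PP2C level was 1.89 times the summed receptor level in myc2 R3 and 2.06 times in WT R3, against 0.282 times in myc2 air and 0.335 times in WT air. Leaving out ABI1, the ratio was 1.32 in myc2 R3 and 1.35 in WT R3, against 0.207 in myc2 air and 0.235 in WT air. The receptor sum itself was 209 RPKM in myc2 R3 and 186 RPKM in WT R3, against 263 RPKM in myc2 air and 218 RPKM in WT air. These are transcript levels, and neither protein nor ABA was measured in these files.

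**Figure D5:**
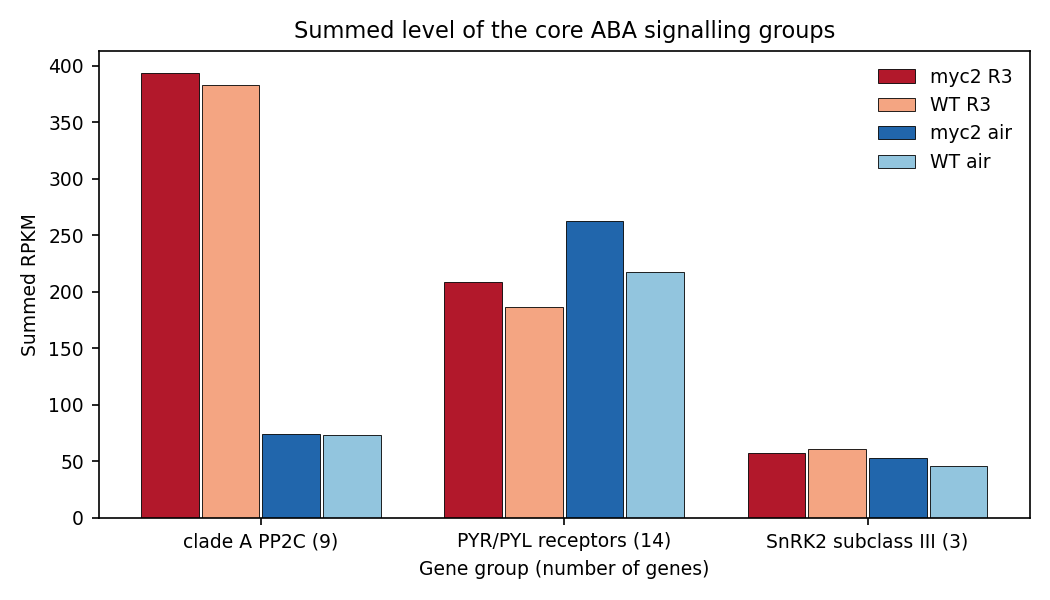
Summed RPKM of the 9 clade A PP2C genes, the 14 PYR/PYL receptor genes and the 3 SnRK2 genes of subclass III in each library, bars starting at 0. The phosphatase bars are 394 and 383 at R3 against 74.0 and 72.9 in air, while the receptor bars lie between 186 and 263 and the kinase bars between 45.8 and 60.8.

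Among the SnRK2 kinases, the family that holds targets of the phosphatases, 8 of 10 passed the filter. Of these 1, SNRK2.6, was at least 2-fold higher at R3 in both genotypes, though with the median of ratios 0 were. Of all genes compared, 23.5% in myc2 and 31.3% in WT were higher, or 17.1% and 17.3% with the median of ratios. SNRK2.6, also called OST1, is the kinase of stomatal closure and stood at 10.6 RPKM in myc2 R3 and in WT R3, against 4.00 and 3.59 RPKM in myc2 air and WT air. SNRK2.3, the lowest ratio of the list in WT, was at 10.2 and 10.8 RPKM in myc2 R3 and WT R3, against 12.3 and 10.7 RPKM in myc2 air and WT air, and a gene on the opposite strand overlaps it. The summed clade A PP2C level was 6.87 times that of the 3 ABA-activated kinases of subclass III, SNRK2.2, SNRK2.3 and SNRK2.6, in myc2 R3 and 6.30 times in WT R3, against 1.41 times in myc2 air and 1.59 times in WT air.

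Downstream, 4 of 6 ABA transcription factor genes that passed were at least 2-fold higher at R3 in each genotype. After rescaling to the median of ratios, 3 were in myc2 and 2 in WT. Of all genes compared, 23.5% in myc2 and 31.3% in WT were higher, or 17.1% and 17.3% after that rescaling. ABI5 is among the 4 and, below 1 RPKM in air, passed only through R3. ABF3, a bZIP factor that binds ABRE, was at 59.2 and 44.3 RPKM in myc2 R3 and WT R3, against 10.2 and 7.97 RPKM in myc2 air and WT air, and a gene on the opposite strand overlaps it. ABI5, known mainly from seeds and seedlings, was at 4.91 and 2.51 RPKM in myc2 R3 and WT R3, against 0.522 and 0.495 RPKM in myc2 air and WT air. ABF1 had the lowest ratio in WT, at 6.56 and 8.18 RPKM in myc2 R3 and WT R3, against 9.39 and 8.49 RPKM in myc2 air and WT air, also with a gene on the opposite strand. Of the 4 AFP genes, which encode proteins that bind ABI5 and repress ABA responses, 3 were at least 2-fold higher in each genotype, also after that rescaling, and AFP1 among them passed only through R3. AFP1 was at 17.2 and 16.7 RPKM in myc2 R3 and WT R3, against 0.353 and 0.593 RPKM in myc2 air and WT air, and AFP2 at 8.32 and 7.84 RPKM in myc2 R3 and WT R3, against 7.36 and 6.57 RPKM in myc2 air and WT air, both overlapped by genes on the opposite strand.

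ABA response genes that passed the filter were higher at R3 in both genotypes. Of 12 genes, 10 passed in myc2 and 8 in WT. All of these were at least 2-fold higher at R3, where 23.5% of all genes were in myc2 and 31.3% in WT. After the rescaling, all of the 8 that passed in myc2 and 7 in WT were higher, where 17.1% and 17.3% of all genes were. The filter set some of these calls: 4 of the 10 in myc2 and 2 of the 8 in WT were below 1 RPKM in air and passed only through R3, while the other 6 in each genotype were at 1 RPKM or more in both libraries. HB12, a homeodomain factor gene, was at 151 and 149 RPKM in myc2 R3 and WT R3, against 12.5 and 9.11 RPKM in myc2 air and WT air. HB7, its relative, was at 87.6 and 81.7 RPKM in myc2 R3 and WT R3, against 6.34 and 7.48 RPKM in myc2 air and WT air, and these factors are known to regulate PP2C genes. RD29B, a widely used ABA reporter, instead stood near 0, at 0.326 and 0.146 RPKM in myc2 R3 and WT R3, against 0.159 and 0.0415 RPKM in myc2 air and WT air. TSPO, a membrane protein gene, was at 2.88 and 2.11 RPKM in myc2 R3 and WT R3, against 0.0629 and 0.131 RPKM in myc2 air and WT air. Its log2 ratio in WT with a pseudocount of 1, 1.46, was the smallest of the 8 that passed although its RPKM ratio there was 16.1, because the pseudocount understates changes of low genes.

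Of 14 genes of ABA synthesis and breakdown, 10 passed in myc2, where 5 were at least 2-fold higher and 1 lower. In WT 9 passed, where 5 were higher and 0 lower. Of all genes compared, 23.5% were higher and 11.5% lower in myc2, and 31.3% higher and 10.1% lower in WT. In WT 4 of the 9, among them CYP707A1 and 3 of the 5 called higher, were below 1 RPKM in air and passed only through R3. With the median of ratios the list had 5 higher and 2 lower in myc2, and 5 higher and 3 lower in WT. All genes then had 17.1% higher and 15.9% lower in myc2, and 17.3% and 17.1% in WT. NCED3, the synthesis enzyme gene induced by drought, was at 12.4 and 14.2 RPKM in myc2 R3 and WT R3, against 1.14 and 1.02 RPKM in myc2 air and WT air. CYP707A1, of ABA breakdown, was at 12.6 and 18.4 RPKM in myc2 R3 and WT R3, against 1.30 and 0.451 RPKM in myc2 air and WT air. BG1, a glucosidase gene that releases ABA from its glucose ester, was at 53.99 and 122 RPKM in myc2 R3 and WT R3, against 234 and 206 RPKM in myc2 air and WT air.

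Of 8 genes for proteins that modify or bind these phosphatases, 2 were at least 2-fold higher at R3 in myc2 and 0 lower. In WT 3 were higher and 1 lower. Of all genes compared, 23.5% were higher and 11.5% lower in myc2, and 31.3% higher and 10.1% lower in WT. The list's median log2 ratio relative to all genes was 0.28 in myc2 and 0.04 in WT. The ubiquitin ligase gene RGLG1, which acts on PP2CA, was at 25.4 and 12.9 RPKM in myc2 R3 and WT R3, against 3.95 and 2.55 RPKM in myc2 air and WT air. DOG1, whose product binds AHG1 in seeds, was at 1.24 and 0.564 RPKM in myc2 R3 and WT R3, against 3.15 and 2.57 RPKM in myc2 air and WT air. It was the 1 gene called lower in WT, where it was below 1 RPKM at R3 and passed only through air. With the median of ratios, 2 of the 8 were higher and 1 lower in each genotype. The shares of all genes were then 17.1% higher and 15.9% lower in myc2, and 17.3% and 17.1% in WT.

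PP2C genes of other clades gave a mixed picture. Of 22 listed genes of clades B to E, 21 passed. Of these, 11 were at least 2-fold higher and 1 lower at R3 in myc2, and 14 higher and 1 lower in WT. With the median of ratios 7 were higher and 1 lower in myc2, and 8 and 1 in WT. Of all genes compared, 23.5% were higher in myc2 and 31.3% in WT, or 17.1% and 17.3% with that rescaling. The median log2 ratio of the 21 was 1.02 in myc2 and 1.23 in WT, against 2.201 and 2.38 for clade A. In myc2 and WT, clade medians were 2.05 and 1.80 (B), 1.79 and 1.84 (C), 0.75 and 1.05 (D), and 0.50 and 1.39 (E). Whether the clades differ was not tested. By clade, 3 of 4 genes of clade B were higher in each genotype, 3 of 5 of clade C in myc2 and 4 of 5 in WT, 4 of 9 of clade D in myc2 and 5 of 9 in WT, and 1 of 3 of clade E in myc2 and 2 of 3 in WT. Of the genes called higher, 3 in each genotype (AP2C2 and AP2C3 of clade B and PLL2 of clade C) were below 1 RPKM in air and passed only through R3.

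In clade B, AP2C2 was at 6.87 and 3.96 RPKM in myc2 R3 and WT R3 and was listed at 0 in both air libraries. AP2C4 had the smallest WT ratio there, at 2.72 and 1.92 RPKM in myc2 R3 and WT R3, against 1.94 and 0.660 RPKM in myc2 air and WT air, and a gene on the opposite strand overlaps it. In clade C, PLL4 was at 52.1 and 38.98 RPKM in myc2 R3 and WT R3, against 6.57 and 4.12 RPKM in myc2 air and WT air. Its relative PLL1, at 1.995 and 2.68 RPKM in myc2 R3 and WT R3, against 1.47 and 1.05 RPKM in myc2 air and WT air, had the smallest WT ratio of that clade. Clade D, whose members are known targets of SAUR proteins in auxin-driven growth, held both directions. AT4G33920 was at 44.6 and 35.5 RPKM in myc2 R3 and WT R3, against 10.6 and 9.64 RPKM in myc2 air and WT air. AT5G02760, overlapped by a gene on the opposite strand, was at 0.479 and 0.521 RPKM in myc2 R3 and WT R3, against 10.07 and 8.60 RPKM in myc2 air and WT air. It was the only listed PP2C gene at least 2-fold lower at R3. Below 1 RPKM at R3 in both genotypes, it passed the filter only through its level in air, which fixed its direction. In clade E, whose EGR phosphatases act on growth under low water, EGR1 was at 8.13 and 16.03 RPKM in myc2 R3 and WT R3, against 3.20 and 4.45 RPKM in myc2 air and WT air, and a gene on the opposite strand overlaps it. EGR3 was at 5.298 and 5.25 RPKM in myc2 R3 and WT R3, against 5.32 and 3.86 RPKM in myc2 air and WT air. Clade A made up 50.5% of the RPKM of all listed PP2C genes in myc2 R3 and 52.4% in WT R3, against 29.3% in myc2 air and 33.0% in WT air.

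HAI1 had the widest range of log2(RPKM + 1) over the libraries, 4.59. The genes nearest to its pattern were sought by Euclidean distance of centred log2(RPKM + 1) over the 4 libraries, among those averaging 5 RPKM or more. The 5 nearest were AT5G39520, at a distance of 0.057, AT3G15518 at 0.11, the receptor-like kinase gene AT1G51890 at 0.13, the ethylene synthesis gene ACS2 at 0.16 and AT2G31945 at 0.16. All 5 were below 1 RPKM in both air libraries and reached the minimum of 5 RPKM only through R3. The pseudocount of 1 understates changes from such low air levels, so their nearness to HAI1 holds on this scale only. ACS2 was at 26.4 and 15.3 RPKM in myc2 R3 and WT R3, against 0.138 and 0.105 RPKM in myc2 air and WT air. HAB1, the nearest of the family, was at a distance of 1.32.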

How the data were processed

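RNA sequencing of leaf RNA gave 1 table per library with 1 value per locus. The deposited values of myc2 R3, myc2 air and WT air are RPKM, by the submitters' own naming of the tables, and those of WT R3 are FPKM, the fragment-based form, per the file headers. They were used as 1 unit. The submitters' processing notes name TopHat, Cufflinks and the build TAIR10 and give no versions. The sources used here do not say whether strand was used or how reads with several matches were handled. Exon lengths, coordinates and sequences came from RefSeq TAIR10.1, since the files carry no coordinates.

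Depth was estimated per library from the most frequent product of RPKM and exon length (in kilobases) between 0.02 and 0.06 among genes with 1 transcript, taken as 1 fragment. Between 21.4% and 24.5% of low genes then lay within 0.02 of a whole fragment, so fragment numbers and counting intervals are approximate, and the window searched bounds them. Ratios used a pseudocount of 1 RPKM, which understates changes of low genes, and a minimum mean of 1 RPKM, and the computation was tested on simulated data. Pseudocounts of 0.1 and 5, the absence of a filter, a minimum of 5 RPKM and 3 rescalings (to the median of ratios, to an equal sum, and to an equal sum without the 50 highest genes) served as alternatives. Members and lists were chosen with earlier results of these data known.

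The genes named are the 9 members, MYC2, those with the highest and lowest WT ratio in each list, 9 set genes (SNRK2.6, PYR1, PYL8, ABI5, ABF3, RD29B, HB7, HB12 and NCED3) and the 5 nearest to the member of widest range. EXT3, PYK10, COBL9, OLEO1, SEP3, AP3, AG and the genes named only for passing the filter through R3 were named after their values were seen. Coding sequences were aligned with MAFFT 7.526. Python 3.11.15, numpy 2.4.6, pandas 2.3.3, scipy 1.17.1 and matplotlib 3.10.9 were used.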

Additional observations from a re-analysis of the deposited data

Results flagged for a closer look

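HAI2 was marked because its difference between the genotypes had opposite directions in air and at R3. The RPKM ratio of myc2 to WT was 2.32 in air (interval 1.39 to 3.91) and 0.833 at R3 (0.703 to 0.992). Both intervals left out 1, the one at R3 only just, and both rest on estimated depths. HAI2 did not pass the filter in air. The level was 0.955 RPKM in myc2 air and 0.412 RPKM in WT air, an estimated 55.4 and 22.9 fragments. With 1 library per group, this difference was not tested.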

How the results depend on the processing

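The number of members at least 2-fold higher at R3 lay between 5 and 7 in myc2 and between 6 and 7 in WT over the main setting and the 7 alternatives, and none was at least 2-fold lower under any of them. The share of all genes at least 2-fold higher moved too, between 13.8% with no filter and 27.2% with a minimum of 5 RPKM in myc2, and between 17.3% with the median of ratios and 41.8% with an equal sum in WT. The count of 5 in myc2 came with a pseudocount of 5, where HAB2 and HAI2 were at log2 ratios of 0.99 and 0.79 and 14.7% of all genes were higher. The members' median relative to all genes was then 1.46 in myc2, against 1.90 in the main setting. Without a filter, which adds members near 0, that median was −0.027 for myc2 against WT in air, against −0.19 in the main setting, and 0.0016 for the difference of responses, against 0.16. With a pseudocount of 0.1, 1 member, HAI2, was at least 2-fold lower in the difference of responses, where 8.77% of all genes were. No value called 2-fold reversed. No paired analysis was possible because each group has 1 library. Depth limits HAI3 and AHG1, which had at most an estimated 20.9 fragments in any library.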
